A study of Mus musculus with 6 samples.

Results

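The leukocyte integrins and their ligand gene Icam1 were followed in cDC1s, the conventional dendritic cell subset known for cross-presenting antigen to CD8 T cells. The 10 genes were the listed members Itgax, Itgb2, Itgal, Itgam, Itgb1, Itga4, Itgb7, Itga5, Itga6 and Icam1, each matched by symbol to its Ensembl gene, out of 32285 features in the count table. All 10 passed the filter on low counts, which left 12568 genes. Read counts were available for 3 libraries of the conditional Vps33b knockout, labelled Vps33BdeltaDC (KO), and for 3 wild-type libraries (WT), all of strain C57BL/6. KO and WT mice alike were given 50 µg HDM (house dust mite) intranasally, and cDC1s were sorted from the mLN 24 h afterwards. The labels name neither the promoter that drove the deletion nor the surface markers of the sort, and they leave unsaid whether each library is a different mouse. The p-values set a group difference against the spread between these libraries, part of which may be technical. They therefore cannot be read as results over separate mice.

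Integrins are cell-surface receptors made of an alpha and a beta chain, and the pairing decides the ligand. The beta2 chain (Itgb2, CD18) pairs with Itgal to form LFA-1, with Itgam to form Mac-1 and with Itgax, whose product CD11c is the classical surface marker of mouse dendritic cells, and LFA-1 and Mac-1 bind ICAM-1. The beta1 chain (Itgb1) pairs with Itga4, Itga5 and Itga6 to bind VCAM-1, fibronectin and laminins, and beta7 (Itgb7) pairs with Itga4 and with Itgae, which encodes CD103. Integrins are taken up and returned to the surface through endosomes, and VPS33B, a Sec1/Munc18-family protein of endosomal membrane fusion, has been described as a binding partner of an integrin beta chain in platelets.

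Both groups had the transcripts of a list for mature migratory dendritic cells, and Vps33b itself had lower values in KO. The libraries held between 11755944 and 18450678 counts. Vps33b was at 5.0, 7.01 and 8.29 CPM (counts scaled to library size with TMM factors) in the KO libraries, against 16.2, 19.1 and 13.8 CPM in the WT libraries, and the groups did not overlap. KO held 41.3% of the WT mean, and the log2 fold change of -1.28 ± 0.27 (SE) had an adjusted edgeR p of 0.834 over all genes, so the targeted gene itself did not pass. These are counts over the whole gene, and the deleted part was not examined. The 12 genes of the mature migratory list summed to 29692 to 34795 CPM in KO and 26928 to 29504 CPM in WT, and the 14 cDC1 genes to 3111 to 3547 CPM in KO and 3036 to 3836 CPM in WT. The 6 general dendritic cell genes summed to 4215 to 4457 CPM in KO and 3849 to 5746 CPM in WT. Within the cDC1 list Irf8 lay between 1244 and 1741 CPM and Id2 between 980 and 1485 CPM. Together Irf8 and Id2 made up most of each cDC1 sum. Xcr1, a defining cDC1 receptor, was only at 5.72 to 44.6 CPM over the 6 libraries. Cd8a was at 30.2 to 140 CPM and Itgae at 11.2 to 24.5 CPM, with Cd8a the higher in every library. Whether the cells had migrated to the node or were resident there was not tested. Sums for genes of other cells were lower than the cDC1 sums and are given as KO and then WT ranges. The lists differ in number and choice of genes, so their sums do not measure purity. Monocyte and macrophage genes summed to 214 to 797 CPM and 221 to 463 CPM, B-cell genes to 137 to 408 CPM and 179 to 328 CPM, and T-cell genes to 75.7 to 91.5 CPM and 68.5 to 89.1 CPM. The pDC genes summed to 127 to 182 CPM and 116 to 159.7 CPM, the cDC2 genes to 117 to 161 CPM and 119 to 189 CPM, and erythroid genes to 5.91 to 178 CPM and 3.18 to 102 CPM. Neutrophil genes summed to 1.23 to 8.73 CPM and 1.28 to 3.35 CPM with Camp at 0, NK-cell genes to 6.60 to 11.2 CPM and 3.38 to 9.62 CPM, platelet genes to 1.16 to 5.82 CPM and 0.42 to 2.50 CPM with Gp9, Gp6 and Treml1 at 0, and stromal and endothelial genes to 10.3 to 30.9 CPM and 15.2 to 19.0 CPM with Pdgfrb and Emcn at 0.

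These cDC1s carried far more Itgb1 and Icam1 transcript than transcript of any other member. Levels were compared between genes as CPM per kilobase of exon, averaged over the 6 libraries, so that a long gene does not appear higher for its length. Itgb1 stood first at 252 CPM per kilobase (217 to 282 over the libraries) and Icam1 next at 237 (225 to 261). Itgb1 was the higher of this pair in 5 of 6 libraries, and with the longest transcript as the length Icam1 stood first, so their order was not fixed. With the median coding transcript as the length, the level of Itgb7 was 117 and that of Itgb2 94.3, above Itga4 at 54.5 and Itgax at 48.0, so the order of these 4 genes holds for the union of exons and the longest transcript but not for that length. Itga4 followed at 38.1, then Itgax at 26.3, each above the next gene in all 6 libraries. Itgb2, the shared chain of the beta2 family, was at 19.5 and Itgb7 at 18.3 CPM per kilobase, and Itgb2 was the higher in 5 of 6 libraries, so this pair did not differ beyond its spread. Itga5, of the fibronectin receptor, was at 8.85 and Itgal, the alpha chain of LFA-1, at 2.59, again each above the next gene in all 6 libraries. Itgam and Itga6, at 0.80 and 0.71 CPM per kilobase, exchanged places between libraries, with Itgam the higher in 3 of 6. The place of Itgam below Itgal is uncertain, since 68.7% of its exon bases are shared with Gm49368 while its level is divided by its full length.

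**Figure D1:**
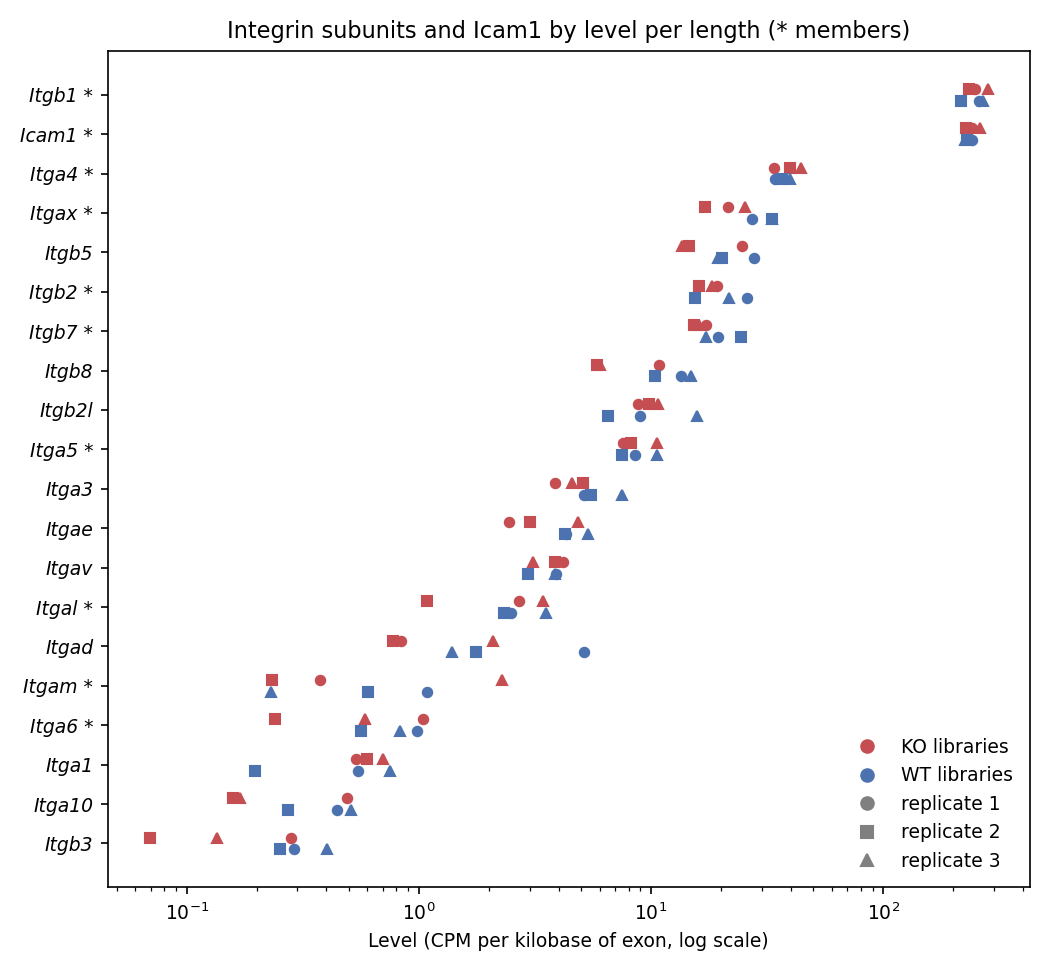
Level of each integrin subunit and Icam1 in each library, in CPM per kilobase of exon on a log axis, ordered by the mean over the 6 libraries (red KO, blue WT, 1 symbol per replicate, members starred, Itgb4 and Itga9 left out because a library was at 0). Itgb1 (217 to 282) and Icam1 (225 to 261) lie above all other genes in every library.

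By share, with the union of exons as length, Itgb1 led the beta genes and Itga4 the alpha genes. Among the 9 beta genes, the level per kilobase of Itgb1 made up 76.2% on average (73.0 to 81.1%), that of Itgb5, the vitronectin receptor chain, 6.07%, Itgb2 5.86% and Itgb7 5.59%. Among the 18 alpha genes, Itga4 made up 45.1 ± 3.70% in KO and 37.0 ± 0.97% in WT, and Itgax 24.3 ± 2.84% in KO and 31.3 ± 2.89% in WT (SD, n = 3 each). Shares of one pool depend on each other, and they were not tested.

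The comparison of KO with WT asked whether transcript levels of these genes differ between cDC1s of the 2 genotypes, and no member passed. Of the 10 members, 0 had an edgeR quasi-likelihood adjusted p under 0.05, as did 0% of the 12568 genes tested. At an unadjusted p under 0.05, 1 member was lower and 0 were higher in KO, against 3.06% lower and 2.71% higher over all genes tested, where 725 genes (5.77%) had such a p in either direction. DESeq2 called 10 genes and limma-voom 0, and no member was among the calls of any tool or setting run. Of the members 6 lay below 0 and 4 above and their median log2 fold change was -0.13, whereas 49.4% of all genes tested lay below 0 around a median of 0.00. The values of KO and WT did not overlap for 1 member, Itgax, which was lower. Over all genes tested 5.19% were lower without overlap, and 10.6% did not overlap in either direction.

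**Figure D2:**
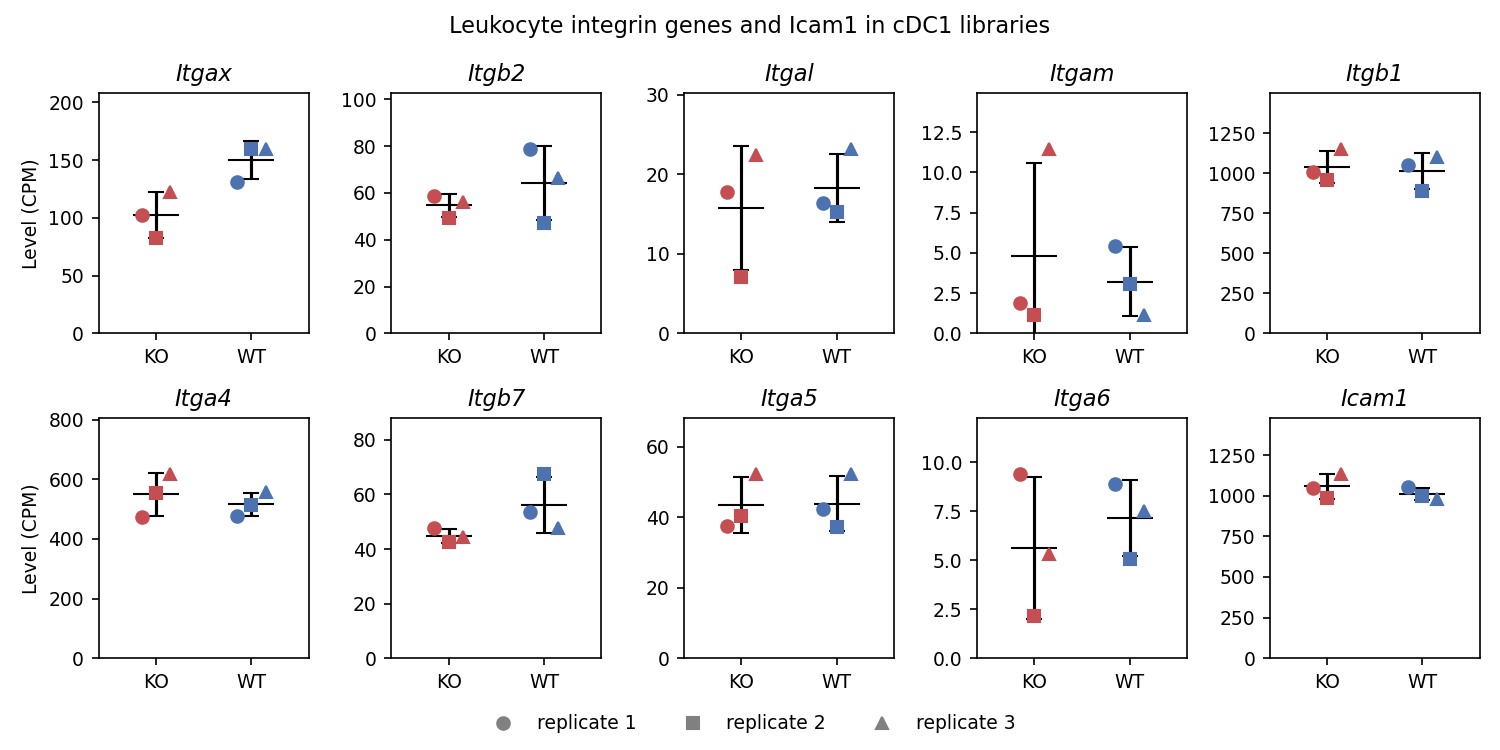
Level of each of the 10 members in CPM, with KO at the left and WT at the right of each panel (1 symbol per library, horizontal line the mean, bars the SD, n = 3 each, the Itgam KO bar is cut at 0). The groups are apart for Itgax and overlap in the other 9 panels.

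Itgax (ENSMUSG00000030789), which encodes CD11c, had the largest separation of the members. It was at 103, 82.2 and 122 CPM in the KO libraries, against 131, 159.7 and 159.5 CPM in the WT libraries. Every KO library was below every WT library, with KO replicate 2 lowest. The means were 102 ± 20.03 CPM in KO and 150.0 ± 16.6 CPM in WT (SD, n = 3 each), so that KO held 68.2% of the WT level. This is a log2 fold change of -0.56 ± 0.16 (SE). Its unadjusted edgeR p was 0.0052 and its adjusted p 0.834 over all genes. An exact two-sided permutation of the 6 libraries gave p = 0.1, the smallest that 3 against 3 can give. Leaving out each library in turn gave log2 fold changes from -0.71 to -0.43, all below 0. In bulk RNA, fewer cells of a type and less RNA per cell cannot be told apart. Several cDC1 genes had lower values in the same libraries: 10 of 14 genes of that list lay below 0, 4 of them at an unadjusted p under 0.05. Over all genes tested 49.4% lay below 0, and 3.06% were lower at such a p. In the mature migratory list 11 of 12 genes lay above 0, against 50.6% of all genes tested. At such a p 1 of them was higher, against 2.71% of all genes tested. Every KO sum of that list was above every WT sum, the closest being 29692 CPM in KO and 29504 CPM in WT. The part of these lists in the Itgax difference was not tested.

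The other beta2-family genes overlapped between the groups. Itgb2 (ENSMUSG00000000290, chr10:77530252-77565708, plus strand) was at 58.7, 49.3 and 56.0 CPM in KO, against 78.8, 47.3 and 66.4 CPM in WT. WT replicate 2 was the lowest of all 6, and the log2 fold change was -0.24 ± 0.19. It was -0.065 without WT replicate 1 and -0.42 without WT replicate 2. Itgal was at 17.7, 7.13 and 22.4 CPM in KO, against 16.4, 15.3 and 23.2 CPM in WT. KO replicate 2 alone was below the rest, and the log2 fold change of -0.28 ± 0.36 became 0.10 without it. Itgad, another beta2 partner, was at 3.77, 3.50 and 9.44 CPM in KO, against 23.1, 7.98 and 6.25 CPM in WT. Its log2 fold change of -1.26 ± 0.62 rested on WT replicate 1 and was -0.42 without that library.

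Itgam, which encodes the CD11b chain of Mac-1 and is abundant in monocytes, was near the bottom of the range and highest in the library with the largest monocyte sum. The exon bases it shares with Gm49368 lie on the same strand, so its counts are uncertain. It had 26, 20 and 130 counts in the KO libraries, against 99, 45 and 22 counts in the WT libraries. In CPM these were 1.88, 1.17 and 11.5 in KO, against 5.44, 3.04 and 1.16 in WT. KO replicate 3 was highest and the groups overlapped. The sum of the 13 monocyte and macrophage genes was 230.2, 214 and 797 CPM in KO, against 463, 221 and 271 CPM in WT, with Lyz2, a lysozyme gene of myeloid cells, at 468 CPM in KO replicate 3. The log2 fold change of Itgam was 0.42 ± 0.88 and became -1.11 without KO replicate 3, and the part of monocyte transcripts in it was not tested.

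**Figure D3:**
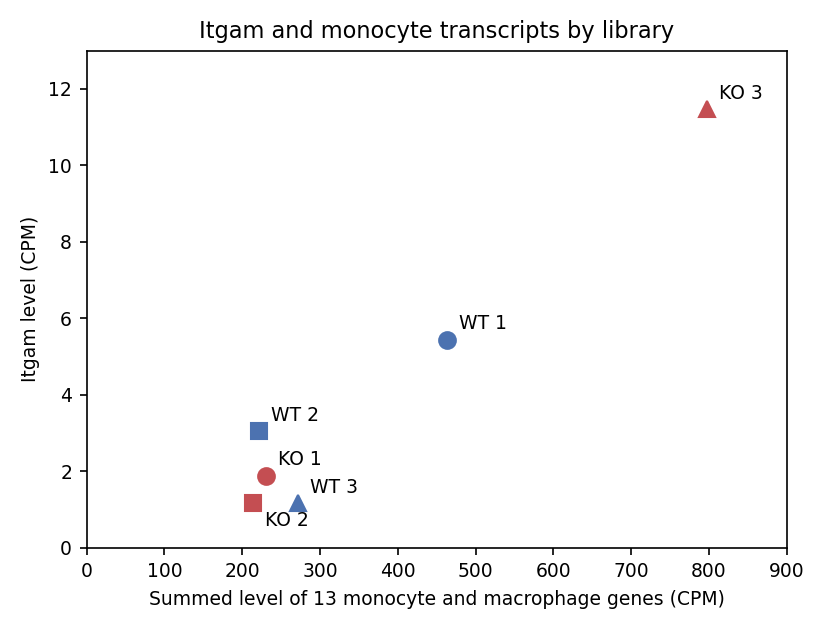
Itgam level against the summed level of 13 monocyte and macrophage genes, both in CPM, 1 point per library (red KO, blue WT). KO 3 lies highest on both axes, at 797 and 11.5 CPM, followed by WT 1 at 463 and 5.44 CPM.

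Itgal, Itgam, Itgax and Itgad lie on the plus strand of chromosome 7 in mm10. Itgal spans 127296260 to 127335138, Itgam 128062640 to 128118491 and Itgax 128129547 to 128150657, so that 11055 bases separate Itgam from Itgax. The promoters of both are shown because the adjacent genes had unlike measured levels, although the counts of Itgam are uncertain. The windows are RefSeq sequences of GRCm38.p6 (250 bases before to 50 after the start, found for 7 of the 10 members). Capitals mark matches on either strand to TGANTCA (AP-1) or AGGAAG, a longer form of the GGAA core of ETS factors such as PU.1. The core alone was not marked, and the Itgax window also holds it in lower case.
Itgax, chr7:128129300-128129599, plus strand: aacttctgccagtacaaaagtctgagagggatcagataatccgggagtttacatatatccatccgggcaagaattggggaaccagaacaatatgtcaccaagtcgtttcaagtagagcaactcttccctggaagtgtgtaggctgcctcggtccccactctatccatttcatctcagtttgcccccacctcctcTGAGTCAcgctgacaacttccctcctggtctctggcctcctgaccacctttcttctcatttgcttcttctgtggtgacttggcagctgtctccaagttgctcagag
Itgam, chr7:128062390-128062689, plus strand: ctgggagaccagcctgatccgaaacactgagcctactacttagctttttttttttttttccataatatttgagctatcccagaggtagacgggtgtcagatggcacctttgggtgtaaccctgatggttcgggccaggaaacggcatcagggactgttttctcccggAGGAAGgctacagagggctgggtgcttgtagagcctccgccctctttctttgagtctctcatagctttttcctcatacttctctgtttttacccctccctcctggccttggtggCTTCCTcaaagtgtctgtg
The Itgax window held 1 AP-1 match, 56 bases before the start, as 7.81% of 32851 promoter windows hold at least 1. The Itgam window held a pair of AGGAAG matches, and 35.4% of windows hold at least 1. These are matches of letters and not shown to be bound. Both patterns were kept from a wider search for those that matched members, so the shares of windows do not test them.

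For beta1 and alpha4 transcripts the groups differed by less than the spread between replicates. Itgb1 (ENSMUSG00000025809, chr8:128685654-128733200, plus strand, mm10) was at 1009, 957 and 1152 CPM in KO, against 1053, 887 and 1103 CPM in WT. The groups overlapped, with means of 1039 ± 101 CPM in KO and 1014 ± 113 CPM in WT, and the log2 fold change was 0.03 ± 0.13. Itga4 (ENSMUSG00000027009, chr2:79255426-79333123, plus strand), the alpha chain of VLA-4, was at 474, 555 and 619 CPM in KO, against 478, 513 and 557 CPM in WT. The lowest and the highest value were both KO libraries, and the log2 fold change was 0.09 ± 0.13. Itga5 was at 37.4, 40.4 and 52.4 CPM in KO, against 42.3, 37.1 and 52.3 CPM in WT, and its log2 fold change was -0.03 ± 0.19. Itga6, a laminin receptor chain, was at 9.42, 2.16 and 5.29 CPM in KO, against 8.90, 5.07 and 7.52 CPM in WT. KO replicate 2 was lowest, and the log2 fold change of -0.42 ± 0.45 became 0.03 without it.

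Itgb7 (ENSMUSG00000001281, chr15:102215995-102231944, minus strand), the partner of Itga4 and Itgae, had lower values in KO that just overlapped with WT. It was at 47.7, 42.5 and 44.4 CPM in KO, against 53.6, 67.6 and 47.6 CPM in WT. KO replicate 1 and WT replicate 3 were nearly equal and the other values were apart. The means were 44.8 ± 2.60 CPM in KO and 56.3 ± 10.3 CPM in WT, and the log2 fold change of -0.32 ± 0.17 had an unadjusted edgeR p of 0.076 and an adjusted p of 0.834. Without WT replicate 2, its highest library, the log2 fold change was -0.18. Itgae, the CD103 gene of cDC1s, was at 11.2, 13.8 and 22.1 CPM in KO, against 19.7, 19.5 and 24.5 CPM in WT, with KO replicate 3 inside the WT range.

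Icam1 (ENSMUSG00000037405), the ligand of LFA-1 and Mac-1 and a target of NF-kB in many cells, was abundant and steady. It was at 1049, 986 and 1136 CPM in KO, against 1054, 998 and 979.9 CPM in WT. The groups overlapped, and the highest library was only 1.16 times the lowest, the smallest such ratio of the members. The means were 1057 ± 75.3 CPM in KO and 1010.5 ± 38.7 CPM in WT, and the log2 fold change was 0.06 ± 0.12 with an adjusted edgeR p of 0.95. The gene lies on the plus strand of chromosome 9 in mm10, from 21015985 to 21028817. Its promoter is shown because it carries a match to GGAANTTCC (NF-kB), in capitals, which is found in 0.93% of promoter windows. That pattern was kept from a wider search for those that matched members, so this share does not test the match. The match spans 21015787 to 21015795. It starts 153 bases before the RefSeq start on which the window is built, and that start differs from the GENCODE start given above.
Icam1, chr9:21015690-21015989, plus strand: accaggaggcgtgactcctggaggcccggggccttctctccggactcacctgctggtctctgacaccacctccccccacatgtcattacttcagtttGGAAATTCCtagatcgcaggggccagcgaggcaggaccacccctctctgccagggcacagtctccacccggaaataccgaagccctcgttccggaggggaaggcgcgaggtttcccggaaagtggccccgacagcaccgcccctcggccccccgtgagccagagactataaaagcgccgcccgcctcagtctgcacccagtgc
The other members with a window, Itgax, Itgam, Itgb1, Itga4, Itgb7 and Itga5, had no such match, and Icam1 had none of the AP-1 or AGGAAG matches.

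Of the wider list of integrin ligands, 17 of 24 genes were tested, of which 10 lay above and 7 below 0 (median log2 fold change 0.06), and 0 passed. Without KO replicate 3 the median was -0.28. Over all genes tested 49.4% lay below 0. At an unadjusted p under 0.05, 1 ligand (5.88%) was lower and 0 were higher in KO, against 3.06% and 2.71% over all genes tested. The lower ligand was Vcam1, which binds VLA-4, at 85.8, 50.1 and 39.0 CPM in KO, against 145, 121 and 83.0 CPM in WT. KO replicate 1 just exceeded WT replicate 3, and the log2 fold change was -0.99 ± 0.31 with an adjusted p of 0.834. Vcam1 thus had 50.0% of its WT level in KO, whereas Icam1 had 105%. Spp1, which encodes osteopontin, was at 4.64, 4.67 and 42.2 CPM in KO, against 9.78, 5.61 and 1.64 CPM in WT. Its highest value was in the same library as that of the monocyte sum, KO replicate 3, and its log2 fold change of 1.49 ± 1.20 became -0.28 without that library. Tnc, a tenascin (-0.67 ± 0.53), and Lgals3bp, a galectin-binding protein (0.25 ± 0.24), were the other named ligands. Tnc was at -1.53 without KO replicate 1 and -0.38 without KO replicate 2, and Lgals3bp at 0.012 without KO replicate 3 and 0.51 without WT replicate 2.

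None of 8 ratios of alpha to beta chains within a library passed a test between the groups, which 3 against 3 libraries cannot bring below an exact p of 0.1. The ratios are of levels over the union of exons. With the median coding transcript as the length Itgb2 stood above Itgax and Itgb7 above Itga4, so the size of a ratio depends on the length used, while its log2 difference between KO and WT does not for a single pair of genes. The level per kilobase of Itgax was 1.11, 1.06 and 1.39 times that of Itgb2 in KO, against 1.06, 2.14 and 1.53 times in WT. The spread within WT was wider than the gap between the groups (exact two-sided permutation p = 0.4, adjusted over the 8 ratios p = 0.8). The sum of Itgal, Itgam, Itgax and Itgad was 1.44 ± 0.33 times Itgb2 in KO and 1.87 ± 0.53 times in WT (SD, n = 3 each, exact p = 0.3). The ratio of Itga4 to Itgb7 was 1.97, 2.59 and 2.76 in KO, against 1.77, 1.502 and 2.32 in WT, with KO replicate 1 inside the WT range (exact p = 0.2). Itgal was 0.13 ± 0.06 times Itgb2 in KO and 0.14 ± 0.03 times in WT (exact p = 0.8). Itga4 was 0.15 ± 0.02 times Itgb1 in both groups, and the sum of Itga4, Itga5, Itga6 and Itgav was 0.21 ± 0.02 times Itgb1 in KO and 0.20 ± 0.02 times in WT (exact p = 0.7 for both). The ratios of Itgam to Itgb2 and of Itgae to Itgb7 had exact p-values of 0.8 and 0.7.

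**Figure D4:**
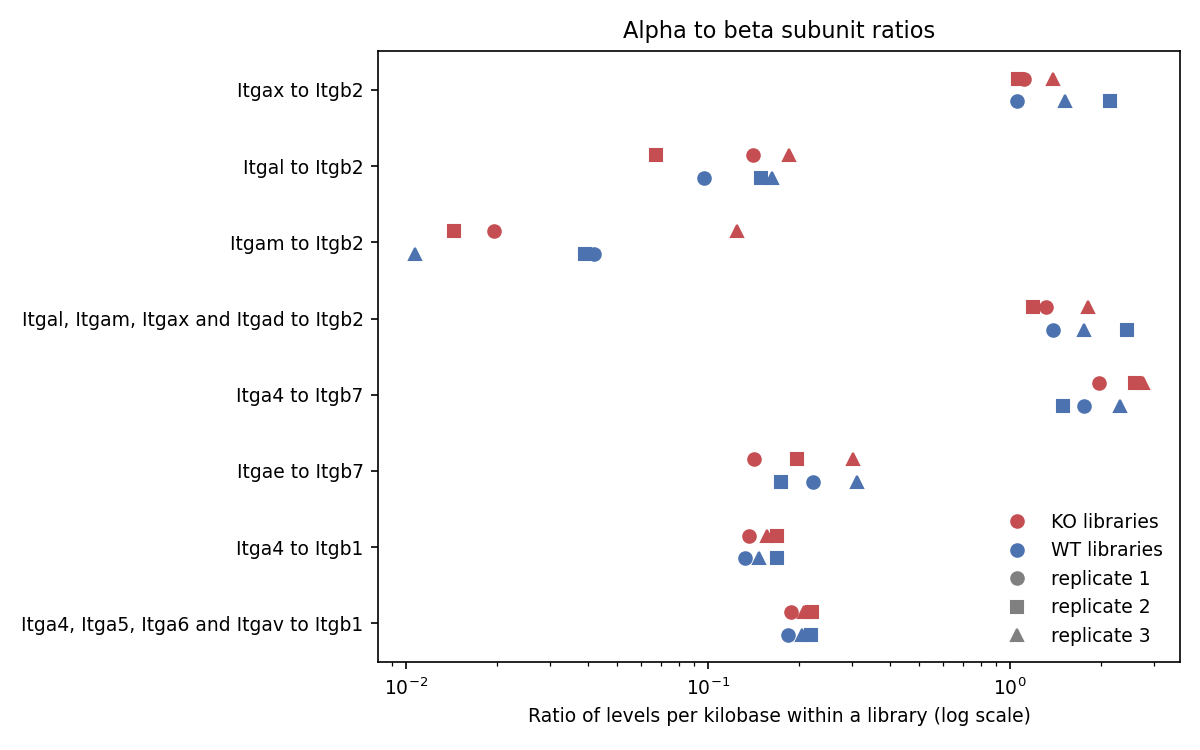
Ratio of alpha to beta subunit levels per kilobase within each library on a log axis (red KO, blue WT, 1 symbol per replicate). KO and WT overlap in all 8 ratios, and the Itgam ratio is the most scattered, from 0.01 to 0.12.

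The other integrin subunits lay mostly below 0, without a call. Of 18 further subunit genes 12 were tested, 9 below and 3 above 0 (median log2 fold change -0.45), and 0 passed. At an unadjusted p under 0.05, Itgb8 was lower and Itgb4 higher in KO, 8.33% each way, against 3.06% lower and 2.71% higher over all genes tested, of which 49.4% lay below 0. Itgb8, which makes the receptor that activates latent TGF-beta, was at 120.1, 64.7 and 66.6 CPM in KO, against 149, 115 and 164 CPM in WT. KO replicate 1 lay between the WT values, and the log2 fold change of -0.77 ± 0.24 was -1.12 without that library. Its adjusted edgeR p was 0.834. Itga3, a laminin receptor chain, was at 22.02, 29.1 and 26.1 CPM in KO, against 29.2, 31.5 and 42.9 CPM in WT. The groups did not overlap, by a narrow margin, and the log2 fold change was -0.42 ± 0.20, and -0.23 without WT replicate 3. Itgb5, whose mean level per kilobase of 20.02 was near that of Itgb2, had a log2 fold change of -0.35 ± 0.24 (-0.67 without KO replicate 1 and -0.17 without WT replicate 1), Itgae -0.47 ± 0.26 (-0.76 without KO replicate 3 and -0.29 without KO replicate 1), Itgav 0.05 ± 0.18 and Itga1 0.24 ± 0.38. Itgb2l, a beta2-like gene known from mouse neutrophils, was at 38.0, 42.2 and 46.5 CPM in KO, against 38.7, 28.2 and 68.3 CPM in WT, while the 9 neutrophil genes together reached at most 8.73 CPM in any library. Itgb3, Itga9, Itga10 and Itgb4 were all under 6 CPM, with log2 fold changes of -1.02 ± 0.63, -1.56 ± 1.10, -0.63 ± 0.58 and 1.69 ± 0.76. With each library left out these spanned -1.73 to -0.58 for Itgb3, -2.06 to -0.073 for Itga9 (the value nearest 0 without WT replicate 1), -1.36 to -0.30 for Itga10 and 1.18 to 3.27 for Itgb4 (highest without WT replicate 3). The extremes of Itgb3 and Itga10 came from leaving out KO replicate 1 (lowest) and KO replicate 2 (highest). The 6 genes not tested included Itga2, with 0 counts in all libraries, which allows up to 0.032 CPM over the 6 libraries (3 counts, counting error only), and the platelet gene Itga2b.

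**Figure D5:**
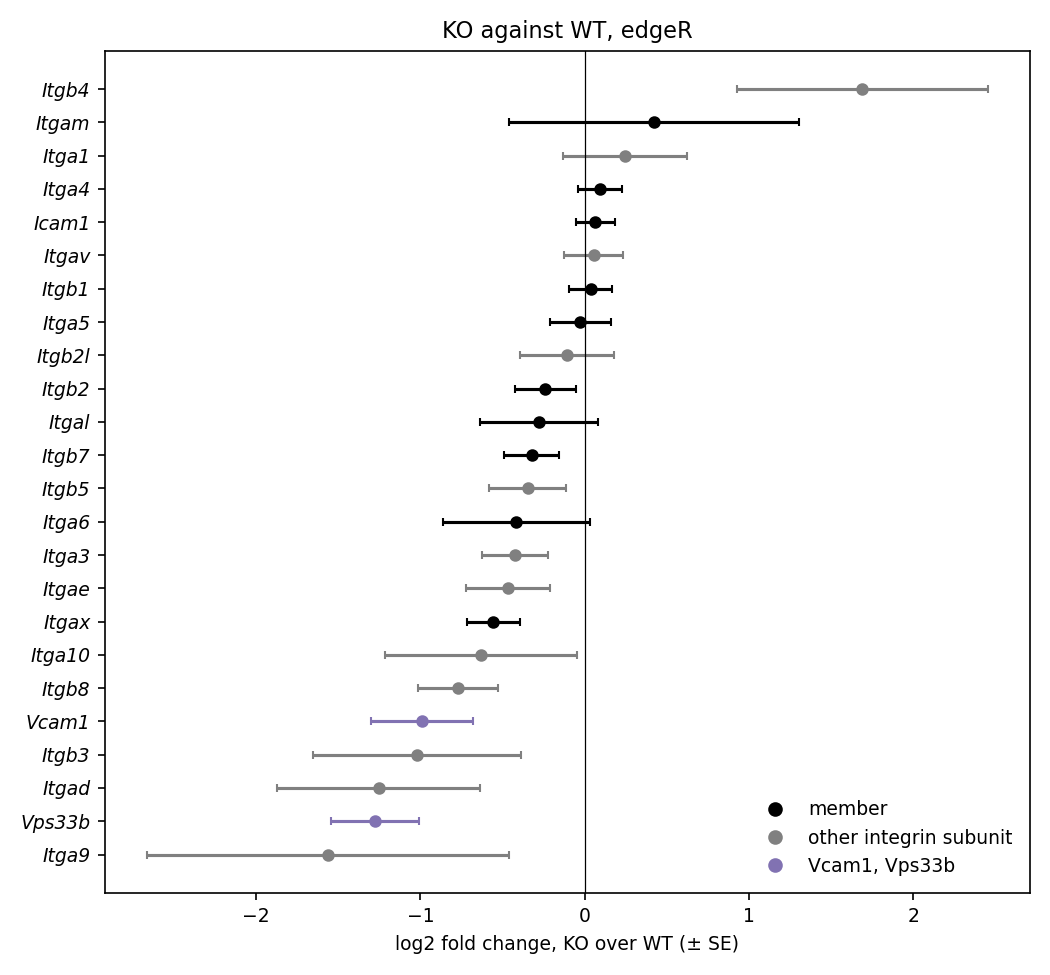
Log2 fold change of KO over WT with its SE for the 10 members (black), the 12 other tested integrin subunits (grey), and Vcam1 and Vps33b (purple). Itgb1, Itga4, Itga5 and Icam1 sit near 0 with narrow bars, Itgax at -0.56 and Vps33b at -1.28, and none of the integrin genes passed the adjusted threshold.

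The genes whose profile over the 6 libraries was most like that of Itgax were Fam149a, Mycl, Pde1b, Tcf7l2 and Exosc5. Likeness was the root mean square difference of centred log2 CPM over 6 libraries, and these had the smallest of 9388 genes with a mean of at least 5 CPM, from 0.10 to 0.13. Mycl encodes a MYC-family transcription factor known from cDC1s, at 17.02, 12.9 and 16.8 CPM in KO, against 21.2, 24.3 and 21.8 CPM in WT. Pde1b encodes a cyclic nucleotide phosphodiesterase, with a log2 fold change of -0.43 ± 0.17, Tcf7l2 a factor of Wnt signalling, at -0.41 ± 0.18, and Exosc5 an RNA exosome subunit, at -0.41 ± 0.24. The lower KO values of these genes follow from their choice by likeness to Itgax. With only 6 libraries many genes take such a profile, and this is a description with no test.

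Genes that activate integrins or link them to actin lay on both sides of 0. Of 48 listed, 44 were tested, 26 below and 18 above 0 (median log2 fold change -0.05), and 0 passed. At an unadjusted p under 0.05, 5 were lower in KO, Tns1, Tns3, Kank1, Rasgrp2 and Fyb, and Rsu1 alone was higher. These are 11.4% and 2.27% of the list, against 3.06% lower and 2.71% higher over all genes tested. The list was chosen with earlier results of these data known, so its shares are a description and no test. The groups did not overlap for 4 lower genes (9.09%) and 1 higher gene (2.27%), against 5.19% and 5.46% over all genes tested. The lower ones were Tns1, Kank1, Rasgrp2 and Actn4 and the higher one Lims1, and of the genes in both counts Rasgrp2, Fyb, Actn4 and Lims1 are named after their values were seen. Tns1, a tensin, had 0, 25 and 6 counts in KO, against 88, 55 and 78 counts in WT, and its log2 fold change was -2.53 ± 0.63. Its adjusted edgeR p was 0.834. Leaving out KO replicate 2 gave -4.12. Its relative Tns3 was at 47.3, 37.1 and 35.9 CPM in KO, against 71.9, 45.3 and 62.7 CPM in WT (-0.58 ± 0.19). Kank1, which binds talin, had 3 counts in KO in all and 51 in WT, a ratio of 0.072 (exact 95% interval 0.014 to 0.22, counting error only). Rsu1, a partner of the ILK adaptor complex, was at 50.3, 83.0 and 83.9 CPM in KO, against 52.6, 50.9 and 55.8 CPM in WT, with KO replicate 1 below every WT library.

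Among genes of integrin uptake and recycling, 28 of 41 tested had a log2 fold change above 0 (median 0.09), and 0 passed. With an unadjusted p under 0.05 there were 4 higher genes and 2 lower ones, Vps33b itself and Iqsec1 (-0.36 ± 0.15), which was named after its values were seen. These are 9.76% and 4.88% of the list, against 2.71% higher and 3.06% lower over all genes tested. For 7 genes (17.1%) every KO library was above every WT library, against 5.46% of all genes tested, and for the same 2 lower genes (4.88%) every KO library was below, against 5.19%. Both lower counts include Vps33b, the gene targeted by the design, so they are not a result about the rest of the list. This list too was chosen with earlier results of these data known, so its shares are a description and no test. Vps26c of the retriever complex, which returns beta1 integrins to the surface, was at 77.1, 77.5 and 84.8 CPM in KO, against 52.6, 58.9 and 64.0 CPM in WT, a log2 fold change of 0.45 ± 0.14. Vps26a of the retromer was at 126, 157 and 163 CPM in KO, against 109, 115 and 112 CPM in WT (0.41 ± 0.13). Stx4a, a plasma membrane SNARE (0.33 ± 0.12), and Rab11a, of recycling endosomes (0.36 ± 0.15), were also apart, each with an adjusted p of 0.834, and Rab11a was at 0.20 without KO replicate 2. The remaining higher genes apart, named after their values were seen, were Vps29 (0.21 ± 0.15), Commd1 (0.29 ± 0.19) and Stx3 (0.22 ± 0.14). Vipas39, which encodes the partner of VPS33B, had a log2 fold change of 0.03 ± 0.15.

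Some counts are uncertain because genes overlap or share sequence. In the annotation 8.04% of the exon bases of Itga4 also belong to Cerkl and 11.7% of those of Icam1 to Gm47079, both on the opposite strand, and the labels do not say if reads were counted by strand. Of the 50-base words in the longest Itgax transcript, 9.61% also occur in Itgad, and 6.501% of those of Itga6 in Gm29397. Among the other subunits, 15.2% of the words of Itgad occur in other genes, Itgax among them, and 8.17% of those of Itgb5 in Gm38317. Itga10 shares 32.0% of its words with Gm42957, and 33.5% of its exon bases belong to that gene on the same strand. No such word of Itgal, Itgb1, Itgb7, Itga5 or Icam1 was found in transcripts of another gene.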

How the data were processed

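RNA from 3 KO and 3 WT libraries of sorted cDC1s was sequenced. The authors deposited raw counts for each Ensembl gene. HISAT2 2.0.5, HTSeq and mm10 are named in the submitters' processing notes, and neither strand setting nor annotation release is given there. Gene names, positions and exon lengths came from GENCODE M21 of mm10, which named 32235 of 32285 features, and promoters from RefSeq GRCm38.p6.

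After filterByExpr and TMM scaling, KO was compared with WT by the quasi-likelihood test of edgeR 4.0.16 (robust glmQLFit, legacy = FALSE; R 4.3.3), using Benjamini-Hochberg adjustment over 12568 genes and a threshold of 0.05. The SE is the log2 fold change over the square root of F. Level per kilobase is TMM CPM divided by the union of exons. Ratios were tested by exact permutation in SciPy 1.17.1. The test was checked on simulated counts of 12568 genes, drawn independently for each gene and library. Known changes were put only into genes with a mean of at least 5 CPM, so lower genes such as Itgam were not covered. At an adjusted p under 0.05 the test recovered 14% of 1.5-fold, 62% of 2-fold, 94% of 3-fold and 96% of 4-fold changes. Most changes of 1.5-fold were thus missed there, so a gene that did not pass is not shown to be unchanged. All pairs of libraries differed by more than sampling noise. Alternatives were RLE and upper-quartile scaling, other filters, DESeq2 1.42.0, limma-voom (limma 3.58.1), no robust estimation, the replicate number as a block, each library left out, other gene lengths, library totals and a pseudocount of 0.5; the older form of the quasi-likelihood fit was added after the data were seen. Named were the members, Vps33b and Vipas39, other tested subunits, the 4 genes of each further list with the smallest p and the 5 genes nearest to Itgax. The members, lists and motifs were chosen with earlier results of these data known. Shares of a list set beside those of all genes are therefore descriptions and not tests. The motifs shown were kept from a wider search for those that matched members.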

Additional observations from a re-analysis of the deposited data

How the results depend on the processing

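No member passed the adjusted threshold under any alternative. Over all genes the count with an adjusted p under 0.05 was 0, but 3 without a filter and 10 with DESeq2, and 0 to 7 with each library left out. The count at an unadjusted p under 0.05 was 725, and 376 to 1621 with each library left out, the lowest without KO replicate 2, then 444 without KO replicate 3, and the highest without KO replicate 1. Itgax, Itgb2, Itgb7 and Icam1 kept their direction in all alternatives. With each library left out, log2 fold changes crossed 0 for Itgal (-0.61 to 0.10), Itgam (-1.11 to 1.10, and -0.11 with limma-voom), Itgb1 (-0.060 to 0.099), Itga4 (-0.0091 to 0.19), Itga5 (-0.18 to 0.12), Itga6 (-1.08 to 0.035), Vipas39 (-0.067 to 0.11), Itga1 (-0.11 to 0.66), Itgav (-0.064 to 0.15), Itgb2l (-0.35 to 0.32) and Spp1 (-0.28 to 2.21). The log2 differences of ratios crossed 0 likewise for Itgal to Itgb2 (-0.45 to 0.28), Itgam to Itgb2 (-0.63 to 0.92), Itgae to Itgb7 (-0.46 to 0.087), Itga4 to Itgb1 (-0.036 to 0.14) and the sum of 4 alpha chains to Itgb1 (-0.042 to 0.085). The median of the members was -0.29 to 0.05, and above 0 without KO replicate 2. The median of the ligands was -0.42 without a filter and -0.28 without KO replicate 3. The cause was not tested. Same-numbered libraries did not deviate together (correlations 0.01, 0.03 and -0.00 over 12568 genes), nor did every library correlate best with its own number. Deviations from a mean of 3 libraries per group cannot decide whether the numbers pair the libraries, and no label says so. A fit with the replicate block gave 0 adjusted calls and 942 at an unadjusted p under 0.05, against 725 without the block. Depth limits Itgam, Itga6 and subunits under 6 CPM, and counting error alone is wide there.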
